A study of Mus musculus with 14 samples.

Results

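The genes described here are 10 genes of the neutrophil primary granule and of the promyelocyte that makes it, namely Mpo, Elane, Prtn3, Ctsg, Srgn, Ms4a3, Hdc, Fcnb, Serpinb1a and Mcpt8. They were taken by symbol from a table of 22155 genes, and all 10 had enough counts to be tested. Messenger RNA was sequenced from mouse MLL-AF9 leukemia cells that express Cas9, in 3 libraries labelled sgCtrl (control) and 3 labelled sgSgf29 (Sgf29 targeted). The labels number the libraries of each group from 1 to 3 but do not say if each number is a repeat or its own sgRNA, and the spread within a group may hold differences between sgRNAs. The leukemia was made by retroviral transfer of MLL-AF9, a fusion of a histone methyltransferase gene with a transcription elongation gene, into bone marrow progenitors. Both groups therefore carry MLL-AF9 and Cas9, both received a lentiviral ipUSEPR vector, and both were kept in puromycin at 2 μg/ml for 3 days. The cells of a library are a transduced pool and not a clone, and Sgf29, a reader of methylated histone H3 in a chromatin-modifying complex, is the gene cut. The comparison asks how expression of these genes differs when Sgf29 is targeted.

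Primary (azurophil) granules are the first granules that a neutrophil precursor fills, at the promyelocyte stage, with myeloperoxidase and a family of serine proteases held on the proteoglycan serglycin. Transcription of this cargo is high in the promyelocyte and falls when the cell goes on to make specific granules and then gelatinase granules. The cargo genes are among the most active genes of myeloid progenitors and of leukemias arrested near that stage. Of the 10 genes, Elane, Prtn3, Ctsg, Mpo and Srgn encode granule contents, whereas Serpinb1a encodes a cytosolic inhibitor of the proteases, Ms4a3 a membrane protein of granulocyte-monocyte progenitors, Fcnb a secreted lectin, and Hdc and Mcpt8 products best known from basophils and mast cells.

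The promoters of 5 of the 9 genes with an entry shared a run of letters, and 3 of these 5 also shared a second run. The sequences below are the 250 bases before the RefSeq start of each gene on GRCm38.p6, shown so that the shared letters can be compared between genes that were lower and Fcnb, which was higher. Capitals mark AGGAAGT, the letters of an ETS (PU.1) core searched on both strands, and CTATAA, the letters of a TATA box searched on the sense strand. The windows are chr11:87793534-87793783 (+) for Mpo, chr10:79886062-79886311 (+) for Elane, chr10:79879417-79879666 (+) for Prtn3, chr14:56102575-56102824 (-) for Ctsg, chr2:28084879-28085128 (-) for Fcnb and chr10:62527446-62527695 (-) for Srgn, which is shown as a gene without either run.
Mpo: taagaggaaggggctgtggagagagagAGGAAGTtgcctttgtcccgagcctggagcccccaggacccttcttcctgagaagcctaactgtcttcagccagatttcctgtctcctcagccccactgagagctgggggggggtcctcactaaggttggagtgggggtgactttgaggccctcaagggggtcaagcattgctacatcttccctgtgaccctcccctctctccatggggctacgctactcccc
Elane: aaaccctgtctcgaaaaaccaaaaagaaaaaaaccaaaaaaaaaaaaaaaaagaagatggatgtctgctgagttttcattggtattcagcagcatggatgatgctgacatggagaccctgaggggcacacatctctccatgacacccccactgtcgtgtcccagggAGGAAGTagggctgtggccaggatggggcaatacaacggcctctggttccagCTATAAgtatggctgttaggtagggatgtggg
Prtn3: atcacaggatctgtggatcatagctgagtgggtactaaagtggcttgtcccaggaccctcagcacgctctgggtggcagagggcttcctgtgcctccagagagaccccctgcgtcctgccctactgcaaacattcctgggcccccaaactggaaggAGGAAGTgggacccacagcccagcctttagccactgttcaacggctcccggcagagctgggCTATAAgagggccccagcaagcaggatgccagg
Ctsg: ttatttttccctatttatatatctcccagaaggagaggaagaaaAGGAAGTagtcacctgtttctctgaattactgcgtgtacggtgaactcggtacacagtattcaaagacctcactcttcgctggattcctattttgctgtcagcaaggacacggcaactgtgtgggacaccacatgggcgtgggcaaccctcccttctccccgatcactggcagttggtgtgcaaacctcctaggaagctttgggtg
Fcnb: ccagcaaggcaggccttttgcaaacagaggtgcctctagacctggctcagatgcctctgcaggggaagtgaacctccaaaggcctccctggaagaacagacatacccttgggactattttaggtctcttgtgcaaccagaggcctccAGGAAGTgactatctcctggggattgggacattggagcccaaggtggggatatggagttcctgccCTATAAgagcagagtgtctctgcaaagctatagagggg
Srgn: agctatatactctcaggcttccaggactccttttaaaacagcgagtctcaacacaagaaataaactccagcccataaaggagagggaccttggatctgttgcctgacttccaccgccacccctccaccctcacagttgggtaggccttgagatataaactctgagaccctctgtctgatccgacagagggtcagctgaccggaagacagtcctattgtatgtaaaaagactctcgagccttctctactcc

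AGGAAGT began at base -223 in Mpo, -84 in Elane, -94 in Prtn3, -206 in Ctsg and -103 in Fcnb, counted back from -1 at the base before the start. It was present in 7.69% of the 32851 mouse promoters of this length. CTATAA began at -32 in Elane, -33 in Prtn3 and -38 in Fcnb and was present in 4.05% of promoters. The 4 genes that hold AGGAAGT and were lower in sgSgf29 cells and the 1 that was higher (Fcnb) therefore share these letters. The looser MYB core AACNG was found in 8 of the 9 promoters (74.2% of all promoters), the RUNX core TGNGGT in Ctsg and Mcpt8 (40.1%) and the C/EBP core TTNNGNAA in Ms4a3 and Fcnb (36.8%), each searched on both strands. The motifs were chosen after the sequences and the expression values were seen, and a match of letters is a description and not a binding site. GENCODE starts Mpo, Elane, Prtn3, Hdc and Mcpt8 upstream of the RefSeq start, and Srgn and Fcnb by a few bases. Part of the Mpo, Elane and Mcpt8 windows and a few bases of the Srgn and Fcnb windows therefore lie inside the gene in that annotation. The whole Prtn3 and Hdc windows do. The Ms4a3, Hdc and Mcpt8 windows were searched but are not shown.

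Sgf29 mRNA, the check of the labels, was 36.1, 40.4 and 40.4 CPM (the count of a gene relative to its TMM-scaled library) in control libraries 1 to 3 and 12.6, 13.4 and 17.4 CPM after sgSgf29. The groups did not overlap, and library 3 kept the most Sgf29 mRNA of the sgSgf29 group. Counts assigned to genes ranged from 16003990 to 21786618 per library, so that even Hdc, the lowest of the 10 genes, had 17 to 30 counts in each sgCtrl library. The p-values below are from edgeR's quasi-likelihood test, adjusted over all 11169 genes tested, and they measure the spread between libraries that nothing in the labels says came from separate cultures. The cells expressed Ptprc, a leukocyte marker, at 140 ± 11.4 CPM in sgCtrl and 220 ± 7.02 CPM in sgSgf29 libraries (SD, n = 3), and Hoxa9, a gene that MLL fusions activate, at 165 ± 7.86 and 63.8 ± 4.68 CPM. Of the 8 leukemia identity genes 4 were lower, Hoxa9 among them, and 4 were higher, including the MLL fusion targets Pbx3 (log2 fold change 0.92) and Meis1 (0.46). Of 13 lymphoid, NK and erythroid markers 7 were at 0 in every library, and the 13 together came to 2.55 to 3.30 CPM in sgCtrl and 2.05 to 2.46 CPM in sgSgf29 libraries.

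Of the 10 genes, 8 were lower and 2 (Hdc and Fcnb) were higher in sgSgf29 than in sgCtrl cells at an adjusted p under 0.05. Among all genes tested 34.4% were lower and 35.4% were higher by the same call, so passing it was common in this comparison. The groups did not overlap for 7 of the 8 lower genes and for both higher genes, against 35.1% and 37.0% of all genes tested. Ctsg, Prtn3, Mpo, Mcpt8 and Srgn were lower by 2-fold or more, a size that 4.67% of all genes tested reached with a call. The median log2 fold change of the 10 genes was -0.95, and that of all genes tested was 0.01. In these bulk libraries fewer cells of a type and less RNA per cell cannot be told apart.

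**Figure D1:**
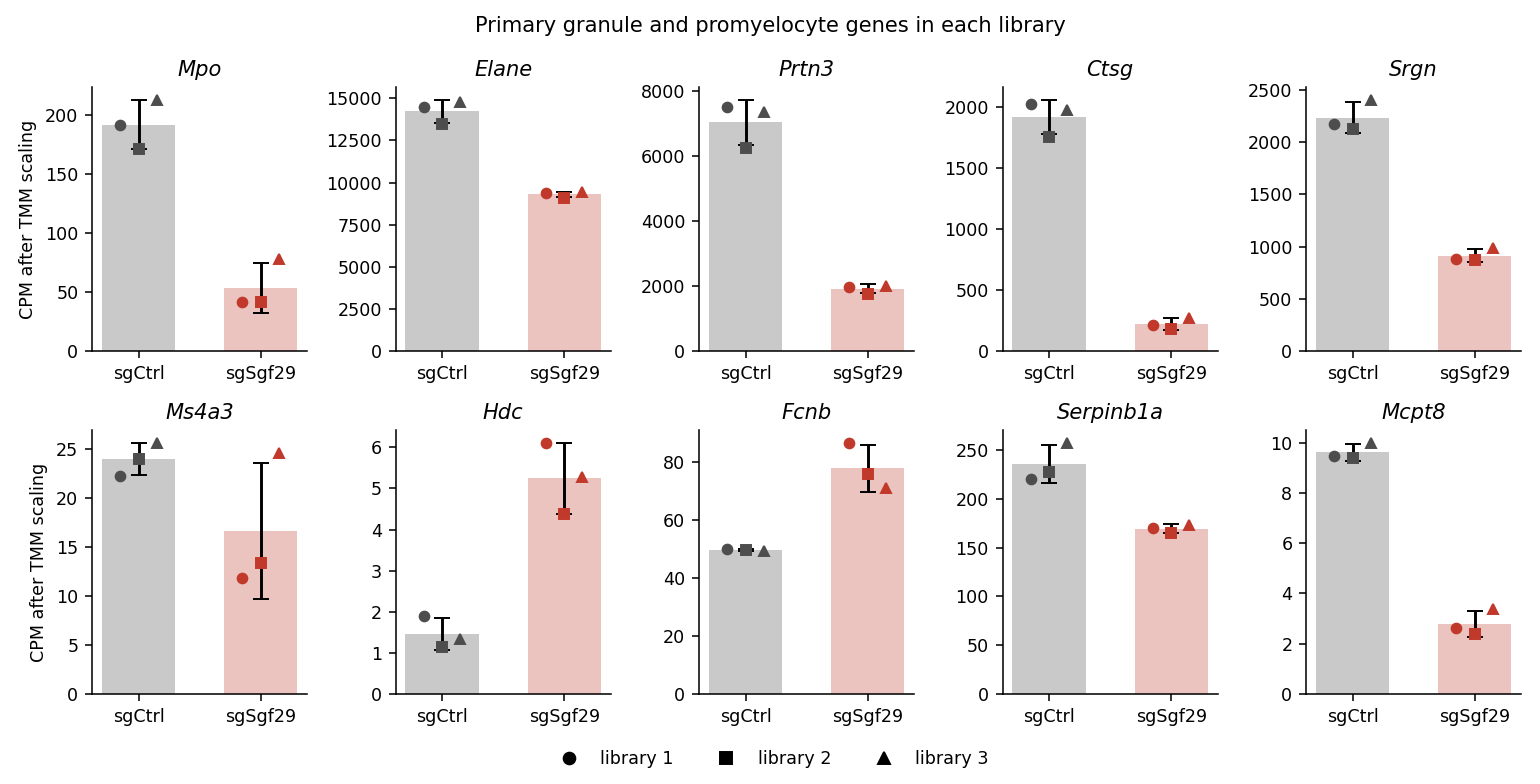
CPM after TMM scaling (vertical axes, linear, each from 0) of the 10 genes in the sgCtrl and sgSgf29 groups, with bars for the mean, error bars for the SD of 3 libraries and 1 point per library. Every sgSgf29 point is lower than every sgCtrl point for 7 genes and higher for Hdc and Fcnb, and the Ms4a3 point of sgSgf29 library 3 (24.6 CPM) lies among the sgCtrl points.

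Ctsg, which encodes cathepsin G, a chymotrypsin-like protease of the granule, had the largest difference of the 10 genes. It measured 2021, 1756 and 1973 CPM in control libraries 1 to 3 and 210.4, 181.6 and 273.7 CPM in sgSgf29 libraries 1 to 3. The lowest control library was far above the highest sgSgf29 library. The log2 fold change was -3.11 (standard error, SE, 0.11, adjusted p = 4.4e-15), an 8.64-fold lower level, and 4 of the 11169 genes tested had a lower log2 fold change. Ctsg lies at chr14:56099881-56102574 (-) of GRCm38.

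Prtn3, which encodes proteinase 3, measured 7522, 6234 and 7340 CPM with sgCtrl and 1972, 1752 and 2011 CPM with sgSgf29. The 3 sgSgf29 values lay close together and below every control value, and the log2 fold change was -1.88 (standard error 0.09, adjusted p = 5.5e-13), with 51 genes below it. Elane, which encodes neutrophil elastase and begins 3072 bases downstream of Prtn3 on the same strand, measured 14465, 13469 and 14767 CPM with sgCtrl and 9354, 9113 and 9430 CPM with sgSgf29. Elane was also lower without overlap, but by less, with a log2 fold change of -0.61 (SE 0.09, adjusted p = 3.9e-06) that 1674 genes were below. Prtn3 lies at chr10:79874476-79883174 (+) and Elane at chr10:79886247-79888215 (+). The 5′ end of Prtn3 overlaps that of Plppr3 on the opposite strand, which measured 521 ± 42.6 CPM in sgCtrl and 234 ± 12.9 CPM in sgSgf29 libraries (SD, n = 3), and without a stated strand setting the reads of the overlap cannot be assigned with certainty.

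Mcpt8, a serine protease gene of basophils that sits 14607 bases from Ctsg at chr14:56082166-56085273 (-), was expressed at a low level. It measured 9.47, 9.37 and 9.99 CPM with sgCtrl (140 to 200 counts) and 2.64, 2.39 and 3.37 CPM with sgSgf29 (45 to 69 counts). The groups did not overlap, and the log2 fold change was -1.78 (standard error 0.17, adjusted p = 1.1e-08).

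Mpo, which encodes the heme enzyme that makes hypochlorous acid in the phagosome, was at a modest level for a primary granule gene. It measured 191.0, 170.9 and 212.4 CPM with sgCtrl and 41.7, 41.3 and 78.1 CPM with sgSgf29. All sgSgf29 values were below all control values, but library 3 was well above libraries 1 and 2 of its group. The log2 fold change was -1.83 (standard error 0.16, adjusted p = 1.9e-09). Mpo lies at chr11:87793581-87804413 (+) and overlaps an annotated antisense gene, Gm11505, for which no counts were used here.

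Srgn encodes serglycin, the proteoglycan core whose sulfated chains hold the cationic proteases in the granule. It measured 2171, 2128 and 2406 CPM with sgCtrl and 884, 877 and 985 CPM with sgSgf29. The groups were well apart, with a log2 fold change of -1.29 (SE 0.08, adjusted p = 1.2e-11). Serpinb1a, the gene of a cytosolic serpin that inhibits elastase, proteinase 3 and cathepsin G, measured 220.4, 227.9 and 257.3 CPM with sgCtrl and 170.3, 164.7 and 173.4 CPM with sgSgf29. It had the smallest difference of the 10 genes, with a log2 fold change of -0.47 (SE 0.07, adjusted p = 2.9e-06) and no overlap. Srgn lies at chr10:62493833-62527451 (-) and Serpinb1a at chr13:32842092-32851185 (-).

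Ms4a3, at chr19:11629496-11640851 (-), marks granulocyte-monocyte progenitors. It measured 22.3, 24.0 and 25.6 CPM with sgCtrl and 11.9, 13.4 and 24.6 CPM with sgSgf29. Libraries 1 and 2 were below the controls and library 3 was among them, so Ms4a3 was the 1 gene whose groups overlapped. Its log2 fold change was -0.52 (standard error 0.17, adjusted p = 0.011). It was -0.33 (adjusted p = 0.11) without sgSgf29 library 1, -0.37 (adjusted p = 0.11) without library 2 and -0.91 (adjusted p = 1.8e-06) without library 3. The call was also lost when TMM factors were dropped, leaving library size (-0.29, adjusted p = 0.16), and with DESeq2 (-0.54, adjusted p = 0.14).

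Hdc and Fcnb were the 2 genes that rose. Hdc encodes histidine decarboxylase, the enzyme that makes histamine, and lies at chr2:126593667-126619299 (-). It measured 1.91, 1.14 and 1.35 CPM with sgCtrl (17 to 30 counts) and 6.09, 4.37 and 5.27 CPM with sgSgf29 (97 to 108 counts). Every sgSgf29 library was above every control, at a log2 fold change of 1.83 (SE 0.24, adjusted p = 8.9e-07). Fcnb encodes ficolin B, a lectin made by myeloid cells of the marrow, and lies at chr2:28076378-28084885 (-). It measured 50.1, 49.5 and 49.4 CPM with sgCtrl and 86.5, 75.8 and 70.8 CPM with sgSgf29. The controls were nearly the same and all 3 sgSgf29 libraries were higher, at a log2 fold change of 0.64 (SE 0.07, adjusted p = 1.7e-07).

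**Figure D2:**
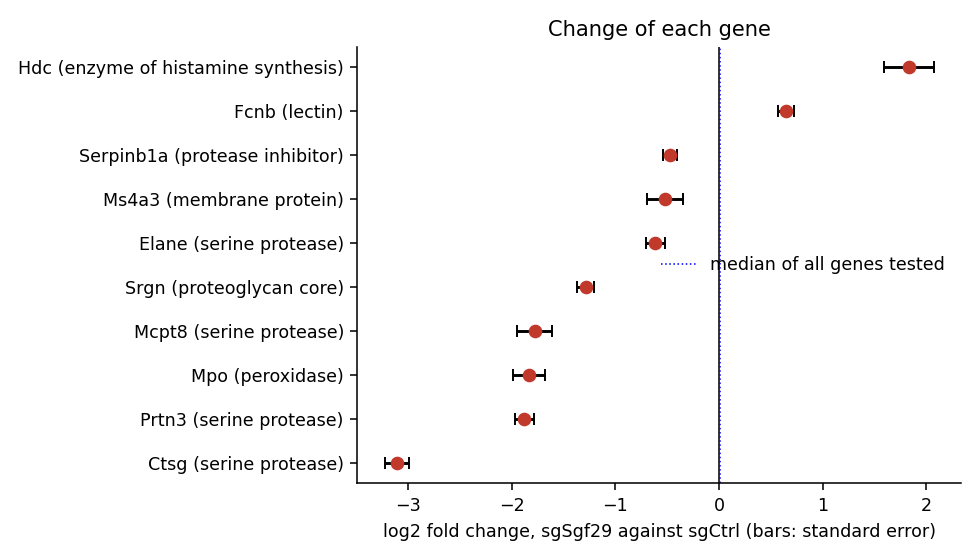
Log2 fold change of each of the 10 genes (horizontal axis, sgSgf29 against sgCtrl) with the standard error derived from edgeR's F statistic and the role of the gene in brackets. Values run from -3.11 for Ctsg to 1.83 for Hdc, and the dotted line marks the median of all genes tested, 0.01.

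The sgSgf29 libraries were not alike for these genes. Library 3, which had the most Sgf29 mRNA of its group, was the nearest of the 3 to the control mean for 9 of the 10 genes, including all 8 that were lower. How often library 3 was nearest among all genes tested was not counted, so this may not be particular to these genes. For Elane the log2 distances from the control mean were close, at -0.605, -0.642 and -0.593 in libraries 1 to 3. On the log2 scale the range within the sgSgf29 group was 1.05 for Ms4a3, 0.92 for Mpo, 0.59 for Ctsg and 0.50 for Mcpt8, and it was 0.20, 0.31, 0.20 and 0.09 for the same genes within the sgCtrl group. For Elane and Serpinb1a the range was 0.05 and 0.07 in the sgSgf29 group and 0.13 and 0.22 in the sgCtrl group. Whether the remaining Sgf29 mRNA has a part in this spread was not tested.

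Levels of different genes were compared as CPM per kilobase of annotated exon. In the sgCtrl libraries Elane stood at 14465 ± 690.2 CPM per kb (SD, n = 3) and ranked first of 21682 genes in each library. Prtn3 followed at 4060 ± 403, Ctsg at 1855 ± 137 and Srgn at 1018 ± 68.2 CPM per kb. Next came Serpinb1a at 102 ± 8.48, Mpo at 55.9 ± 6.06 and Fcnb at 37.1 ± 0.248 CPM per kb. Ms4a3 at 12.7 ± 0.882, Mcpt8 at 9.63 ± 0.334 and Hdc at 0.229 ± 0.0621 CPM per kb were the lowest. No neighbours in this order overlapped among the control libraries. Mpo, although the best known product of the granule, therefore stood far below the proteases Elane, Prtn3 and Ctsg, at rank 907 to 1048.

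In the sgSgf29 libraries Elane stood at 9450 ± 168 CPM per kb and ranked 3 in each library. Prtn3 was at 1104 ± 80.6 CPM per kb and ranked 39 to 46, against 8 to 13 in the controls. Srgn, at 417 ± 27.5 CPM per kb, was now above Ctsg, at 215 ± 45.6 CPM per kb and rank 183 to 258. Fcnb at 58.0 ± 5.99 was now above Mpo at 15.7 ± 6.18 CPM per kb, which ranked 2235 to 3730. Mpo and Ms4a3 (8.83 ± 3.69 CPM per kb) were the only neighbours in this order whose libraries overlapped.

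As a share of all gene counts, which does not depend on scaling factors, the 10 genes took 2.45%, 2.25% and 2.49% of the control libraries and 1.35%, 1.34% and 1.42% of the sgSgf29 libraries. The difference of the means was -1.02 percentage points. Elane alone took 1.31% ± 0.0510 and 1.01% ± 0.0181 (SD, n = 3), and the other 9 genes together took 1.08% ± 0.0775 and 0.365% ± 0.0270. The make-up of the total shifted as well. Elane contributed 54.9% ± 0.910 of the counts of the 10 genes in sgCtrl libraries and 73.4% ± 1.16 in sgSgf29 libraries. Prtn3 went from 27.1% ± 1.15 to 15.1% ± 0.642, Ctsg from 7.39% ± 0.162 to 1.74% ± 0.316, and Srgn from 8.63% ± 0.423 to 7.22% ± 0.305.

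**Figure D3:**
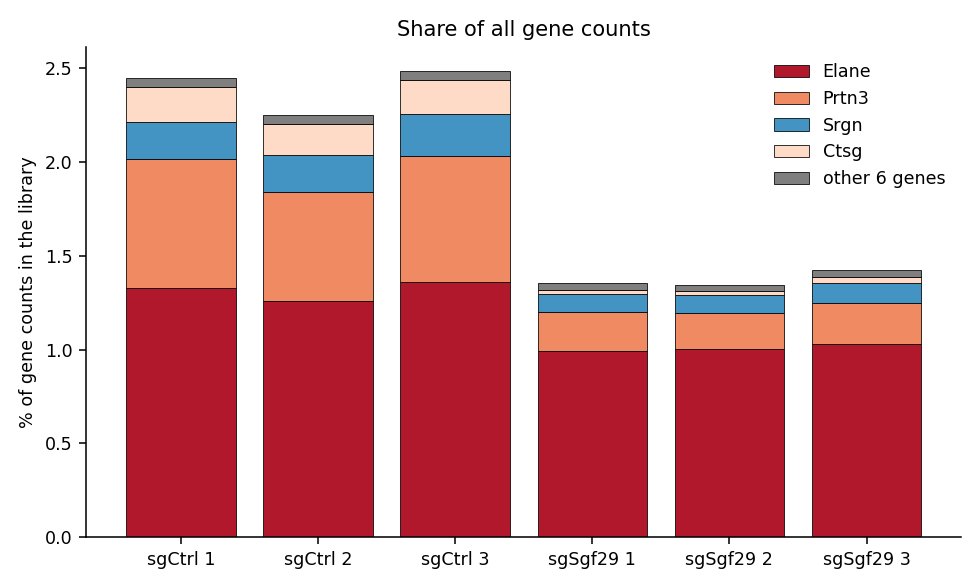
Share of all gene counts (vertical axis, percent, from 0) taken by the 10 genes in each library, split into Elane, Prtn3, Srgn, Ctsg and the other 6 genes. The stacks reach 2.25% to 2.49% in the sgCtrl libraries and 1.34% to 1.42% in the sgSgf29 libraries, and Elane fills most of each sgSgf29 stack.

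The unequal size of the differences was measured by ratios of counts within a library. Ctsg counts per Elane count were 0.140, 0.130 and 0.134 with sgCtrl and 0.0225, 0.0199 and 0.0290 with sgSgf29, a log2 difference of -2.52. There were 1.92, 2.16 and 2.01 Elane counts per Prtn3 count with sgCtrl and 4.74, 5.20 and 4.69 with sgSgf29, a log2 difference of 1.26. The groups did not overlap in either ratio. Ctsg per Mpo went from 10.05 ± 0.674 to 4.32 ± 0.775 (SD, n = 3). Serpinb1a per count of Elane, Prtn3 and Ctsg summed went from 0.0102 ± 0.000852 to 0.0148 ± 7.38e-05, and was higher in each sgSgf29 library than in each control. Srgn per Mpo was 11.7 ± 0.639 in sgCtrl and 21.2, 21.2 and 12.6 in the 3 sgSgf29 libraries, with library 3 close to the controls. Each of the 5 ratios gave p = 0.1 (also adjusted over the 5) in an exact two-sided permutation test, which is the smallest value that 3 libraries against 3 allow.

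Other proteins of the primary granule did not share one direction. Of 8 further cargo genes 7 were tested, of which 2 were lower, 3 higher and 2 without a call, with a median log2 fold change of 0.16 beside 0.01 for all genes tested. Among all genes tested 34.4% were lower and 35.4% higher, so a mix of this kind was common. The counts of the lists that follow are to be read beside the same shares. Lyz2, which encodes lysozyme, rose from 335 ± 44.2 to 1156 ± 75.1 CPM (SD, n = 3, log2 fold change 1.79), and Cd68, a lysosomal membrane protein, rose from 12.3 ± 1.36 to 56.6 ± 3.26 CPM (2.21). Gusb, the lysosomal beta-glucuronidase, rose by 0.40 on the log2 scale. Cd63, a tetraspanin of the granule membrane, fell from 57.5 ± 10.6 to 22.7 ± 1.28 CPM (-1.34), and Prss57, a further serine protease of the granule, from 162 ± 7.04 to 128 ± 5.72 CPM (-0.34). The call of Prss57 was lost with scaling by library size alone (-0.11).

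The later granules stood opposite to the leading proteases for most genes. Of 11 specific granule genes, all tested, 8 were higher and 3 were lower, with a median of 1.39. Olfm4 (log2 fold change 2.65), Chil3 (2.12), Cd177 (1.62) and Lcn2 (1.39), which encode secreted or surface proteins of that granule, rose. The 3 that fell were Ltf, encoding lactoferrin (-0.86), Cyba, encoding the p22-phox subunit of the oxidase (-0.22), and Camp, encoding the cathelicidin precursor (-0.16), and the latter pair had values of 0.0077 and 0.069 with scaling by library size alone. The call of Camp was lost in 6 further alternatives and that of Cyba without sgCtrl library 1 or sgSgf29 library 2, each with the same sign. Of 11 genes of the gelatinase granule and mature neutrophil 9 were tested and all 9 rose, with a median of 1.96. S100a9, a calcium-binding protein of neutrophil cytosol, rose from 3446 ± 224 to 13070 ± 427 CPM (SD, n = 3). Mmp9, the gelatinase itself (1.97), Itgam, an integrin chain (1.96), and Cxcr2, a chemokine receptor (2.40), rose as well.

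**Figure D4:**
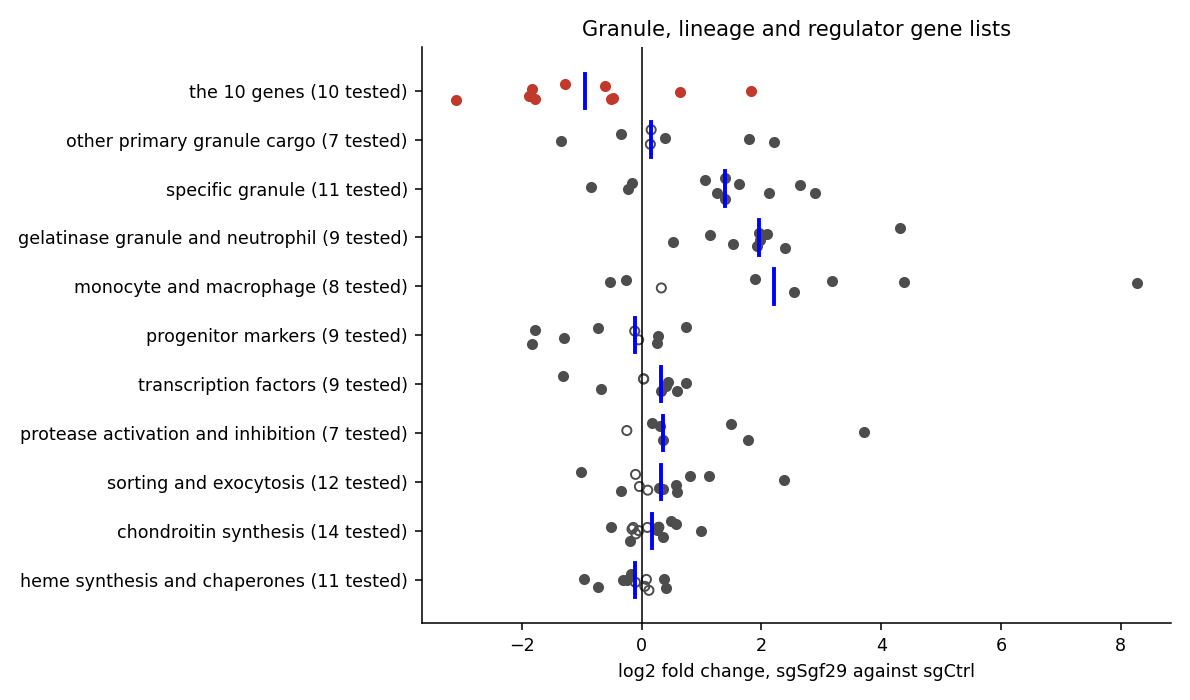
Log2 fold change (horizontal axis, sgSgf29 against sgCtrl) of each tested gene of 11 lists, with filled points for genes that passed the test, open points for those that did not, and a blue line at the median of each list. The medians are -0.95 for the 10 genes, 0.16 for other primary granule cargo, 1.39 for specific granule genes and 1.96 for the gelatinase list, and the monocyte point farthest to the right is Fcgr1, which had no counts in the sgCtrl libraries, so its fitted value depends on the prior count.

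Genes of protease activation and inhibition and of granule sorting and exocytosis mostly did not fall with the cargo. Of 11 genes of protease activation and inhibition 7 were tested, 6 were higher and none was lower, with a median of 0.36. Ctsc, which encodes dipeptidyl peptidase 1, the enzyme that activates the granule proteases, was 50.6 ± 3.18 CPM in sgCtrl and 56.9 ± 1.10 CPM in sgSgf29 libraries (log2 fold change 0.17, adjusted p = 0.039), and its call was lost in 5 alternatives (adjusted p = 0.054 to 0.19). Among the protease inhibitor genes of this list, Serpinb2 (3.72), Serpinb6a (1.49), Cst7 (0.36) and Slpi (0.30) rose. The list does not separate inhibitors of the granule proteases from inhibitors of other proteases. Of 13 genes of granule sorting and exocytosis 12 were tested, 2 fell (1 with scaling by library size alone) and 7 rose, with a median of 0.33. Stx11, a syntaxin of granule fusion (2.37), Lyst, the gene of the Chediak-Higashi granule defect (1.12), and Snap23 (0.81) rose, and Ap3s1, a subunit of the AP-3 sorting adaptor (-1.02), fell. Of the other listed AP-3 subunits, Ap3b1 (0.58) and Ap3m1 (0.57) rose and Ap3d1 (-0.04) had no call.

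Of 16 genes that build the chondroitin chains carried by serglycin 14 were tested, 2 fell and 6 rose, with a median of 0.18. The count that fell was 1 without sgCtrl library 2, sgCtrl library 3 or sgSgf29 library 2, and with upper-quartile or library size scaling. Chst15, a chondroitin sulfotransferase (0.99), Chsy1, a chondroitin synthase (0.57), and Fam20b, a xylose kinase (0.49), rose, and Xylt2, a xylosyltransferase that starts the chain (-0.52), fell. Of 11 genes of heme synthesis and of the chaperones that fold myeloperoxidase, 5 fell, 2 rose and 4 did not pass, with a median of -0.11. This balance turned round with scaling by library size alone, where 2 fell and 5 rose, and without sgCtrl library 3 the count that rose was 1. Alad, an early enzyme of heme synthesis (-0.97), and the chaperones Calr (-0.73) and Pdia3 (-0.32, and -0.084 without a call by library size alone) fell, and Fech, which inserts the iron (0.40), rose. Of 6 histamine genes 2 were tested, in which Hnmt, a histamine-degrading enzyme, rose (0.47) and the receptor gene Hrh1 fell (-1.69, from 0.764 ± 0.147 to 0.231 ± 0.181 CPM), a call that was lost without sgSgf29 library 2 (adjusted p = 0.057), and without sgCtrl library 3 no histamine gene was called lower.

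Of 9 transcription factor genes known to act on primary granule genes 2 fell, 5 rose and 2 did not pass, with a median of 0.32. Gfi1, a repressor needed for neutrophil commitment, fell from 285 ± 17.1 to 114 ± 8.34 CPM (SD, n = 3, log2 fold change -1.31), and Myb, an activator of Mpo and Elane in progenitors, fell from 325 ± 4.14 to 202 ± 6.43 CPM (-0.69). Runx1 (0.73), Cebpe, the factor of specific granule genes (0.41), and Spi1, which encodes PU.1 (0.32), rose. Cebpa, the factor of granulocyte commitment, measured 206 ± 19.8 and 211 ± 8.37 CPM (log2 fold change 0.03, adjusted p = 0.70), and by library size alone it had a call at 0.26. Of 10 progenitor markers 9 were tested, 4 fell and 3 rose, with a median of -0.12. Plac8 (-1.79), Sox4 (-1.83) and Kit (-0.74) were among those that fell, while Mgst1 (0.74), Clec12a (0.28) and Fcgr3 (0.26) rose.

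Markers of other myeloid cells also moved with the groups. Of 12 monocyte and macrophage markers 8 were tested, 5 rose and 2 fell (1 with scaling by library size alone), with a median of 2.22, and 3 were at 0 in every library. Their summed level was 1668 to 1912 CPM in sgCtrl and 1470 to 1480 CPM in sgSgf29 libraries, most of it Ly6c2, which fell from 1489.8 ± 101 to 1034 ± 26.7 CPM. Ccr2 (3.17), Adgre1 (4.39), Mpeg1 (2.54) and Cd14 (1.89) rose. Of 9 eosinophil markers 3 were tested and rose, and 2 were at 0 in every library. The sum was 8.77 to 12.05 CPM in sgCtrl and 27.4 to 30.3 CPM in sgSgf29 libraries, most of it Siglecf, at 9.93 ± 1.66 and 26.5 ± 1.504 CPM. Epx (0.0223 ± 0.0386 and 0.954 ± 0.382 CPM) and Prg3 (0.0968 ± 0.0953 and 0.791 ± 0.240 CPM) rose from very low levels. With a filter of at least 1 CPM in at least 3 libraries the eosinophil count that rose was 1. The part of these markers in the values of the 10 genes was not tested.

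Basophil and mast cell markers bear on Mcpt8, which was lower, and Hdc, which was higher. Of 13 such markers 2 were tested, and 6, the defining Cpa3, Fcer1a, Tpsab1, Tpsb2, Cma1 and Mcpt4, had no count in any library. The 13 summed to 1.67 to 1.97 CPM in sgCtrl and 2.88 to 3.65 CPM in sgSgf29 libraries. Gata2, shared by mast cells and progenitors, was 1.44 ± 0.164 and 1.27 ± 0.275 CPM, and Gata1 was 0.0832 ± 0.144 and 0.950 ± 0.509 CPM and rose in the test. With a filter of at least 1 CPM in at least 3 libraries no basophil or mast cell marker was called higher. Related genes of the 10 were mostly silent, since 25 of 36 listed paralogs, including Lpo beside Mpo and the granzyme genes around Ctsg, were at 0 in every library.

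Genes next to the 10 were examined within 50 kb. Of 32 such genes 19 were tested, of which 7 fell, 10 rose and 2 had no call, with a median log2 fold change of 0.35. Among all genes tested 34.4% were lower and 35.4% higher. Cfd, which encodes the complement protease factor D and lies 2638 bases beyond Elane, rose from 3.18 ± 0.655 to 8.17 ± 1.09 CPM (SD, n = 3, log2 fold change 1.37), while Elane and Prtn3 were lower. Farther on the same side Med16, a Mediator subunit (0.44), R3hdm4 (0.67), Arid3a (0.80) and the low Kiss1r (1.62) rose. On the other side Plppr3 (-1.15) and Ptbp1, a splicing regulator (-0.73), fell with Prtn3. Thus the direction changed between Elane and Cfd, in a comparison where most genes tested were called lower or higher.

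**Figure D5:**
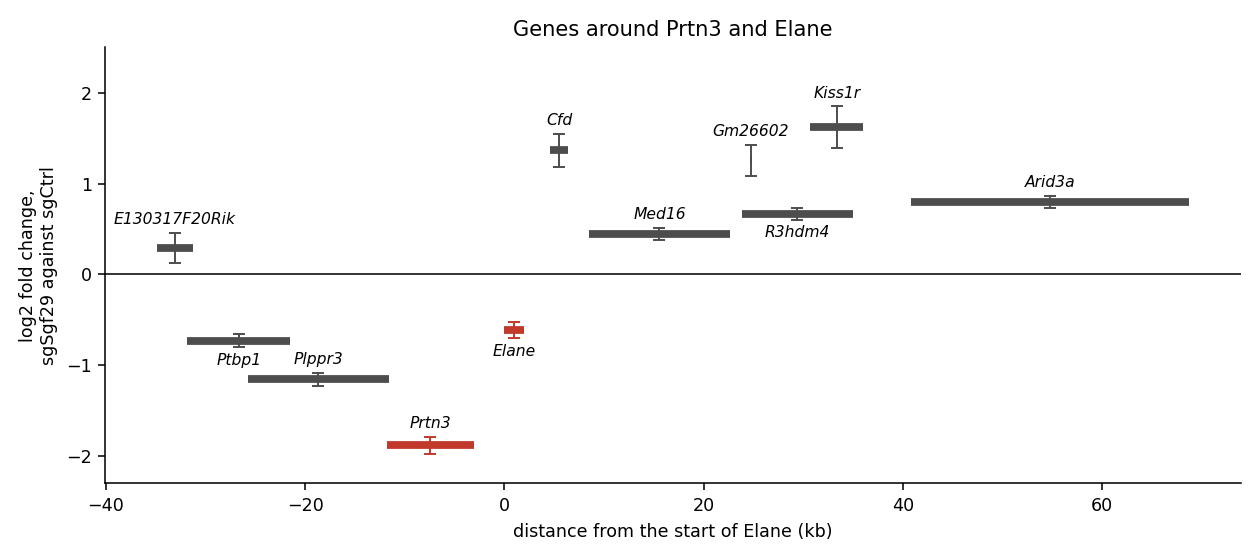
Log2 fold change (vertical axis, sgSgf29 against sgCtrl, error bars for the standard error) of the tested genes around Prtn3 and Elane, drawn to scale as bars along the distance from the start of Elane in kb (horizontal axis). Prtn3 (-1.88) and Elane (-0.61) are in red, Plppr3 and Ptbp1 to their left are also below 0, E130317F20Rik at the far left (0.29) did not pass the test, and all tested genes to their right from Cfd (1.37) on are above 0.

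Around the other genes, Tspoap1, which ends 7653 bases before Mpo, fell from 1034 ± 213 to 387 ± 63.4 CPM (log2 fold change -1.42) and Mks1 by less (-0.37), while Supt4a measured 88.9 ± 5.24 and 89.2 ± 4.82 CPM. Beside Hdc, which rose, Slc27a2 (-1.03) and Gabpb1 (-0.41) fell. With scaling by library size alone the calls of Mks1 (-0.13) and Gabpb1 (-0.18) were lost, as was that of Mks1 without sgSgf29 library 3 (-0.29). Beside Srgn, Vps26a (0.35) and Kif1bp (0.86) rose and Supv3l1 (-0.95) fell, and beside Serpinb1a the gene Wrnip1 rose (0.48). Neighbours of Ctsg and Mcpt8 in the granzyme and mast cell protease cluster had no counts in any library.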

How the data were processed

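RNA-seq libraries labelled sgCtrl (3) and sgSgf29 (3) were analysed, grouped by their labels. The 8 ChIP-seq samples of the series were not analysed here. The authors deposited raw read counts per gene in 1 table of 22155 genes. The submitters' processing notes name STAR 2.6.0a, edgeR and GRCm38, and the paper names featureCounts, whereas the table ends in 5 bookkeeping entries of the htseq-count kind. These held 25.8% to 31.4% of each library and were left out. Reads that did not align uniquely have an entry of their own among these and made up 5.41% to 7.57% of each library. The strand setting and the annotation are stated in none of the sources used here.

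Counts were scaled by TMM (mean factors 0.923 for sgCtrl and 1.08 for sgSgf29), filtered by filterByExpr (a count of at least 10, and 15 in total), which left 11169 genes, and tested by the quasi-likelihood test of edgeR 4.0.16 (R 4.3.3). P-values were adjusted by Benjamini-Hochberg and called under 0.05. Standard errors were derived as the absolute log2 fold change over the square root of the F statistic. Biological variation came to a coefficient of 6.61%. The procedure was tested on simulated data. Chi-square over degrees of freedom was 4.48 to 15.4 between libraries of a group, so none agreed within sampling noise. Depth was 16003990 to 21786618 gene counts per library, and the precision it gives covers counting error only.

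The 10 genes and all lists were chosen with earlier results of these data known. Named besides the 10 were Sgf29, genes among the 4 called with the smallest adjusted p of a list, and tested neighbours. Ltf, Camp, Cyba, Cebpa, Spi1, Ctsc, Prss57, Gata2, Ly6c2, Meis1, the markers at 0, Fcgr1, Lpo and the Fcnb promoter were chosen after their values were seen. So were Ptprc, Clec12a, Fcgr3, Ap3b1, Ap3m1, Ap3d1, Ms4a2, Il1rl1, Cd200r3, Il4 and Prss34. Exon lengths and positions are from GENCODE for GRCm38, and promoters from RefSeq on GRCm38.p6, where 9 of the 10 genes matched. Protein sequences were not used here. Alternatives were other scaling factors, DESeq2 1.42.0, limma-voom (limma 3.58.1), other filters, a replicate block and leaving out each library.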

Additional observations from a re-analysis of the deposited data

How the results depend on the processing

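Of the 10 genes, 9 kept their direction and their call in 16 of 16 alternatives, and Ms4a3 lost its call in 4. Scaling by library size alone, which moved the median of all genes tested from 0.01 to 0.24, gave 2385 lower and 5575 higher genes in place of 3842 and 3957, 16 distinct lower genes of the other lists in place of 25, and a median log2 fold change of the 10 genes of -0.72. It also turned Camp to 0.069, Cyba to 0.0077 and Gata2 to 0.053. Leaving out sgSgf29 library 3 gave a median of -1.12 for the 10 genes. With ribosomal protein genes left out of the denominator, the share of the 10 genes differed by -1.38 percentage points in place of -1.02. Leaving out each library in turn gave 7 to 8 lower and 2 higher of the 10 genes, a median of -1.12 to -0.91, a difference in share of -1.09 to -0.97 points, 3429 to 3833 lower and 3662 to 3943 higher genes in all, 20 to 24 lower genes of the other lists, and log2 ratio differences of -2.67 to -2.40 (Ctsg to Elane), 1.22 to 1.31 (Elane to Prtn3), -1.35 to -1.09 (Ctsg to Mpo), 0.48 to 0.86 (Srgn to Mpo) and 0.48 to 0.59 (Serpinb1a to its targets). Supt4a, near 0, became -0.0085 with RLE factors, -0.0052 with TMM without ribosomal protein genes and -0.0084 with DESeq2, and ranged from -0.045 to 0.059 when a library was left out. Cebpa, also near 0, ranged from -0.013 to 0.11 when a library was left out. Ptprc, Fcgr1, Clec12a, Fcgr3, Ap3b1, Ap3m1, Ap3d1 and the markers too low to be tested were not followed gene by gene. Of 1417 values for 89 named genes under these alternatives, 1380 kept their direction and their side of the threshold. Of the rest, 23 lost the call, 3 gained one and 11 changed sign. The 89 genes include the 10 and Sgf29, so the 4 calls that Ms4a3 lost are among the 23. The causes were not tested. Depth limits Hdc and Mcpt8 most, with 17 and 45 counts in their lowest libraries.

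Deviations of same-numbered libraries correlated by 0.01, 0.06 and 0.08, and those of differently numbered libraries by -0.09 to 0.04. All were small, and they do not settle if the replicate numbers pair the libraries. A replicate block left 8 lower and 2 higher of the 10 genes, with a median of -0.95, and gave 3937 lower and 4059 higher genes in all.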
